A study of Mus musculus with 6 samples.

Results

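The caspases and the apoptosome gene Apaf1 were followed in 3T3 cells, a mouse embryonic fibroblast line in long use, 48 h after treatment with an antisense oligonucleotide against the long non-coding RNA Ntep. All non-control array probes that the files name Casp1, Casp2, Casp4, Casp6, Casp8, Casp9, Casp12 or Apaf1 were taken. These were 9 probes of 8 genes, out of all 55681 non-control probes of the array, and no other probe carried the accession of one of these genes. One group received GapmeR Ntep at 50 nM and the other GapmeR control at 50 nM, each with 3 arrays from 3 experiments. The dose is that of the labels, whereas the supplement writes it as 2 × 50 nM for both GapmeRs. A GapmeR pairs with its target RNA through DNA bases flanked by modified ends, which lets RNase H cut that RNA. Both groups were grown in the same serum-containing medium and carried no other genetic change named in the labels. The 3T3 line is a single immortal line, so the spread between arrays covers separate experiments with 1 line and not separate animals.

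Caspases are cysteine proteases that are made as inactive precursors and cut their substrates after aspartate. The initiators Casp8 and Casp9 start apoptosis from death receptors and from mitochondria, and Apaf1 binds cytochrome c and assembles the apoptosome on which Casp9 is activated. Casp2 is activated on a separate platform that contains Pidd1 and Cradd, and Casp6 is cut by other caspases and then cuts lamins. Casp1, Casp4 (the mouse caspase-11) and Casp12 form the inflammatory branch. Casp1 is activated by inflammasomes and matures interleukin-1 beta and interleukin-18, Casp4 senses lipopolysaccharide inside cells, and both cut gasdermin D, the pore protein of pyroptosis. Caspase activity is set largely by cutting of the protein, which an mRNA array does not measure.

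Signals are given on the scale of quantile-normalised array intensity, and the brightest probe stands for a gene. The signal of one probe cannot be compared with that of another. Probes whose group mean reached 50 in either group entered the limma fit, which left 30990 and kept all 9 caspase and Apaf1 probes. Between 43.7% and 53.3% of all probes were well above background on an array, and no probe was saturated. The probe for Ntep (A630089N07Rik, chr16:98283712-98283771 in mm9) read 472, 91.5 and 226 in experiments 1, 2 and 3 under the GapmeR Ntep label, and 271, 272 and 361 under the GapmeR control label. Its log2 difference was -0.48 (SE 0.58, limma adjusted p = 0.632), and experiment 1 went against its label, with a log2 difference of 0.80, so every direction below is that of the label. Whether knockdown at this probe was weak in experiment 1 or its labels were exchanged was not tested. All 8 caspase and Apaf1 genes differed in experiment 1 in the same direction as in experiments 2 and 3. These genes were chosen with earlier results of these data known, and no share of all probes stands beside this count. The count is therefore no check of the labels. All 8 fibroblast marker genes examined, among them Col1a1 and Vim, were well above background on all 6 arrays. Of these, 7 were lower on the Ntep arrays, none with a limma adjusted p under 0.05 and none by the methods' t-test. At an unadjusted p under 0.05 there were 2 of the 8, where 25% of all tested probes reached it. Their summed signal, to which the brightest probes gave the most, was 554877 to 735434 on the Ntep arrays and 805861 to 887735 on the control arrays. These ranges did not overlap, as was so for 32.4% of single tested probes. The part of this sum in the caspase results was not tested.

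The 3 inflammatory caspases had lower signals on the arrays labelled GapmeR Ntep than on those labelled GapmeR control in all 3 experiments, and Casp1 and Casp4 passed the test over all probes. Casp1 passed with its Ntep signals at background. It entered the fit only through the control group, and its Ntep signals of experiments 2 and 3 were raised to a fixed floor. Its p therefore rests in part on that floor and is not a full test. Of the 2 genes counted as passing below, only Casp4 was well above background in both groups. Casp2 was lower as well, by less than the 3 inflammatory caspases. Casp8, Casp9, Casp6 and Apaf1 read slightly higher, and none of the 4 passed. In all, 2 of 8 genes had a limma adjusted p under 0.05, both lower, where 3.21% of all tested probes were called lower, 2.09% higher and 5.3% in either direction. The same 2 genes passed the limits the study used, 2-fold or more with p under 0.01 before adjustment, which 5.06% of tested probes passed as lower, 3.08% as higher and 8.13% in either direction. The signals of the groups did not overlap for 6 of 8 genes, 4 lower and 2 higher, against 32.4% of tested probes, 15.2% lower and 17.2% higher. The median log2 difference was -1.87 over the 3 inflammatory caspases and 0.43 over the other 5 genes, and 0.06 over all tested probes. With 8 genes, these shares are a description of the genes and not a test of the family.

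**Figure D1:**
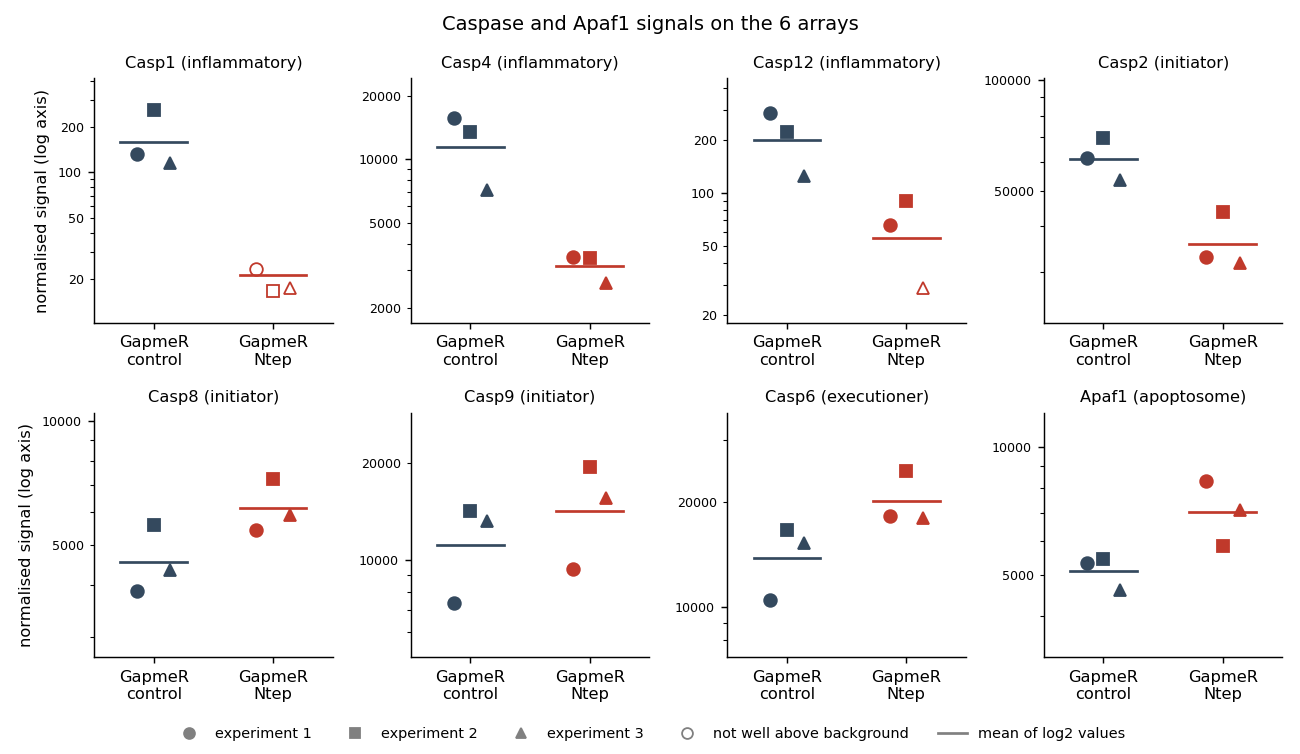
Normalised signal of the brightest probe of each gene (log axis, own scale per panel) on the 3 GapmeR control arrays and the 3 GapmeR Ntep arrays; symbols mark the experiment, open symbols arrays on which the probe was not well above background, and horizontal lines the mean of the log2 values. The Ntep points lie below all control points for Casp1, Casp4, Casp12 and Casp2, above all of them for Casp6 and Apaf1, and overlap them for Casp8 and Casp9.

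Casp1, the effector protease of the inflammasome, fell to background. Its only probe (chr9:5307206-5307265, mm9) read 23.3, 16.5 and 17.4 on the GapmeR Ntep arrays of experiments 1, 2 and 3 and 132, 258 and 115 on the GapmeR control arrays. The Ntep signals were not well above background on any array, whereas those of all 3 control arrays were, and the groups did not overlap. The means were 19.0 ± 3.69 and 168 ± 78.3 (SD, n = 3 each). The fitted log2 difference was -2.90 (SE 0.33, limma adjusted p = 0.0232). The probe reached the limit of 50 only through the control group. Ntep signals of 16.5 and 17.4 entered the fit as 20, so the SE and p rest in part on that floor. The Ntep side gives no measured value. With the lowest signal of any probe well above background on each Ntep array put in its place, Casp1 was 3.05-fold lower. Some probes brighter than that signal were still not well above background. The value is therefore a reference point without an error and not a strict bound. Within the experiments the log2 differences were -2.50, -3.69 and -2.52, with Ntep signals under 20 counted as 20. With an array left out, the adjusted p rose above 0.05 without Ntep array 3 (0.0957) and without control array 1, 2 or 3 (0.0552, 0.109 and 0.0799). It was also above 0.05 without an intensity limit (0.0558), by the methods' t-test (0.0625) and with normexp background correction. That correction used an offset of 50, added to every signal, which narrows log2 differences of dim probes. Under it the log2 difference of Casp1 was -0.93 (limma adjusted p = 0.0515).

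Casp4 was the inflammatory caspase with signals far above background on every array. Its brighter probe (chr9:5336658-5336717, mm9) read 3471, 3435 and 2607 on the Ntep arrays and 15716, 13395 and 7211 on the control arrays. The lowest control array, that of experiment 3, still read well above the highest Ntep array. The means were 3171 ± 488 and 12107 ± 4396 (SD, n = 3 each), and the log2 difference was -1.87 (SE 0.33, 95% confidence interval -2.68 to -1.06, limma adjusted p = 0.0375), 3.66-fold lower. Its second probe shares 55 of its 60 bases with the first and gave -1.89 (SE 0.30, adjusted p = 0.0335), so the pair is 1 measurement of the transcript rather than 2. Within the experiments the brighter probe differed by -2.18, -1.96 and -1.47. Without any 1 array the difference stayed between -2.21 and -1.64, but its adjusted p was above 0.05 each time (0.0780, 0.0630 and 0.127 without Ntep arrays 1, 2 and 3, and 0.0739, 0.158 and 0.0799 without control arrays 1, 2 and 3). It was likewise above 0.05 without an intensity limit (0.103), by the methods' t-test (0.0969) and with limma's variances shared over all probes (0.0600).

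Casp12, the third gene of the branch, whose activity in inflammation is debated, was lower with more scatter. Its probe (chr9:5372975-5373034, mm9) read 66.0, 89.8 and 28.6 on the Ntep arrays and 287, 224 and 125 on the control arrays. The groups did not overlap, and the Ntep array of experiment 3 was not well above background, so 2 of 3 Ntep arrays measured it. The log2 difference was -1.86 (SE 0.51, 95% confidence interval -3.11 to -0.60, limma adjusted p = 0.0911). With experiments as blocks, its limma adjusted p was 0.0332, and with normexp background correction and its offset the difference was -0.79 (adjusted p = 0.0764). The differences within experiments were -2.12, -1.32 and -2.13.

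The probes of these 3 genes lie within 65.8 kb of one another on chromosome 9, in the order Casp1, Casp4 and Casp12, with 29.5 kb and 36.3 kb between them. Only 2 other tested probes lie within 1 Mb of the cluster, in a search made after the data had been seen. They are 8430410K20Rik, with a log2 difference of 0.44 (limma adjusted p = 0.166), and Gm2181, with -0.13 (adjusted p = 0.879). The 4 probes of Kbtbd3, Gria4 and Ddi1 in this stretch were not well above background on any array and were not tested.

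Because the 3 neighbours were lower together, the 250 bases before their first annotated start sites are shown, 5′ to 3′, from RefSeq on GRCm38.p6. They come from another genome build than the mm9 probe positions above. Capitals mark matches to the gamma-activated site (GAS), an element of interferon-gamma response genes, searched as TTCNNNGAA on both strands, a pattern that reads the same on each.
Casp1, chr9:5298267-5298516, + strand: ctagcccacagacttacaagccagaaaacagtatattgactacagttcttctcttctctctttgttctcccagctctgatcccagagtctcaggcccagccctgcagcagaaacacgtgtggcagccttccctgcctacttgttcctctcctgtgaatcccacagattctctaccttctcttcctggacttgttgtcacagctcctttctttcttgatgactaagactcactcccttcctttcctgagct
Casp4, chr9:5308599-5308848, + strand: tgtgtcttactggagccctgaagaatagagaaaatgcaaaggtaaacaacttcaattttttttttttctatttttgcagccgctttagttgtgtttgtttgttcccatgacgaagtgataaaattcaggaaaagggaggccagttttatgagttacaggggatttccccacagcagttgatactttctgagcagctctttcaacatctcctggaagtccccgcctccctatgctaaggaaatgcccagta
Casp12, chr9:5345226-5345475, + strand: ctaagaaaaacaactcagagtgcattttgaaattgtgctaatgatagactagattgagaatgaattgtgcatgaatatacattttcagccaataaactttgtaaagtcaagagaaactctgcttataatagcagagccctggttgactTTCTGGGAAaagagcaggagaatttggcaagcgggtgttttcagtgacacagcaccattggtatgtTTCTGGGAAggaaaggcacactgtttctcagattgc
In the 300 bases from 250 before to 50 after each start, the core of the interferon-stimulated response element (ISRE), searched as GAAANNGAAA on both strands, has no match at any start site of the 8 genes, and 3.44% of 32851 mouse promoters of this length hold it. A GAS match occurs in 8.30% of them. Among the 8 genes only Casp12 has one, with TTCTGGGAA beginning 102 and again 36 bases before the start. These are matches of letters and not sites shown to be bound. Likewise, no match in this window does not show that a gene lacks such an element.

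Casp2, the initiator that forms the PIDDosome with Cradd and Pidd1, was lower by less than the inflammatory caspases. Its probe (chr6:42232367-42232426, mm9) read 33066, 43787 and 31837 on the Ntep arrays and 61354.5, 69452 and 53382 on the control arrays. The 2 groups did not overlap, and the differences within experiments were alike at -0.89, -0.67 and -0.75. The log2 difference was -0.77 (SE 0.21, 95% confidence interval -1.27 to -0.26, limma adjusted p = 0.0862), 1.70-fold lower. With experiments as blocks its adjusted p was 0.0444, so that 4 of 8 genes passed in that fit, all lower, where 7.31% of tested probes passed as lower and 13.8% in either direction, and with scaling of the arrays to their 75th percentile in place of quantile normalisation the difference was -0.57 (adjusted p = 0.152).

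The receptor initiator Casp8 and the apoptosome pair Casp9 and Apaf1 were higher in all 3 experiments by small amounts. The Casp8 probe (chr1:58901601-58901660, mm9) read 5429, 7220 and 5921 on the Ntep arrays and 3875, 5603 and 4362 on the control arrays. The groups overlapped, and the log2 difference was 0.43 (SE 0.22, 95% confidence interval -0.10 to 0.96, limma adjusted p = 0.278). The Casp9 probe (chr4:141371773-141371832, mm9) read 9421, 19481 and 15589 against 7366, 14270 and 13255.5. Experiment 1 was the lowest in both groups, which widened the error of Casp9, with a log2 difference of 0.35 (SE 0.38, 95% confidence interval -0.58 to 1.27, adjusted p = 0.597).

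The Apaf1 probe (chr10:90452580-90452639, mm9, on the minus strand) read 8316, 5833 and 7097 on the Ntep arrays and 5332, 5435 and 4616 on the control arrays. No Ntep array was as low as a control array, and experiment 2 differed least, with log2 differences of 0.64, 0.10 and 0.62. The fitted difference was 0.45 (SE 0.20, 95% confidence interval -0.03 to 0.94, limma adjusted p = 0.221). Casp6, a substrate of other caspases and itself a lamin protease, was higher by a like amount. Its probe (chr3:129616453-129616512, mm9) read 18222, 24538 and 17937 against 10456.5, 16596 and 15193, without overlap, and differed by 0.53 (SE 0.25, 95% confidence interval -0.08 to 1.15, adjusted p = 0.249). The upper ends of these intervals do not exclude a difference of 0.94 to 1.27, so the absence of a call is not evidence that the 4 genes were equal in both groups.

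**Figure D2:**
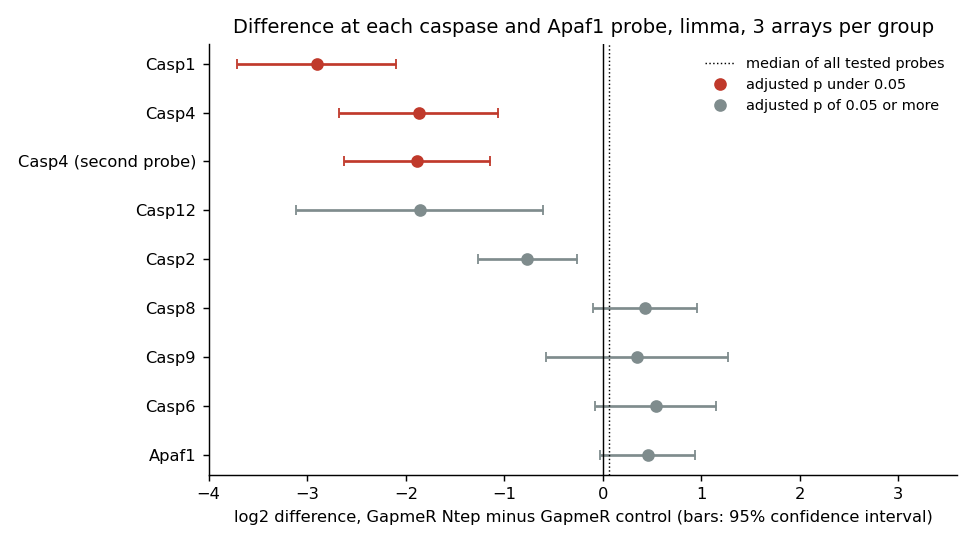
Log2 difference, GapmeR Ntep minus GapmeR control, for the 9 caspase and Apaf1 probes (3 arrays per group); points are limma estimates, bars 95% confidence intervals, and the dotted line the median of all tested probes, 0.06. The intervals of Casp1, Casp4, Casp12 and Casp2 lie below 0, and those of Casp8, Casp9, Casp6 and Apaf1 include it.

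**Figure D3:**
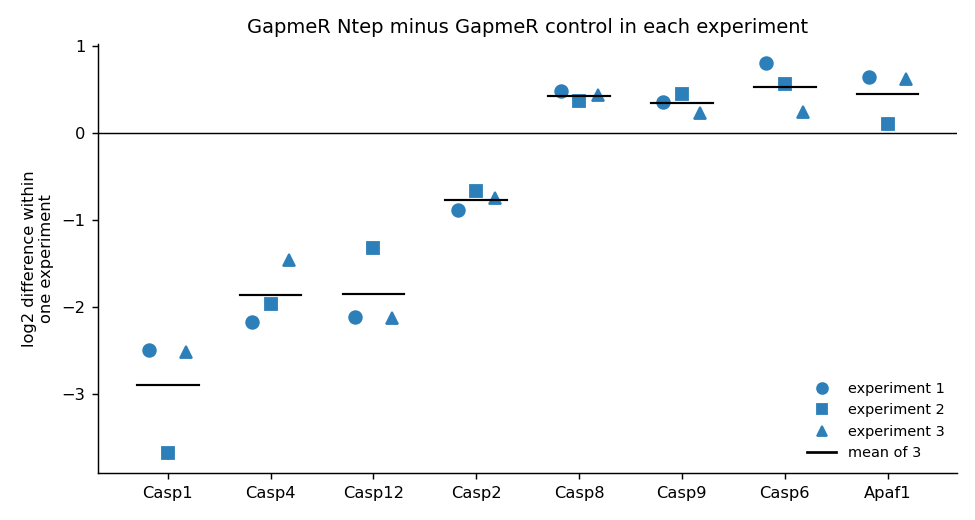
Log2 difference of each gene within each of the 3 experiments, with the mean of the 3 as a line. Casp1, Casp4, Casp12 and Casp2 are below 0 in all 3 experiments and Casp8, Casp9, Casp6 and Apaf1 above 0 in all 3.

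An exact permutation test over 3 against 3 arrays cannot fall below a two-sided p of 0.1, and it gave 0.1 for Casp1, Casp4, Casp12, Casp2, Casp6 and Apaf1, 0.2 for Casp8 and 0.5 for Casp9. Without Ntep array 3 or control array 2, no probe of the array had a limma adjusted p under 0.05, although 6116 and 5072 had an unadjusted p under 0.05, so that losses on leaving out an array are not particular to the caspases.

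**Figure D4:**
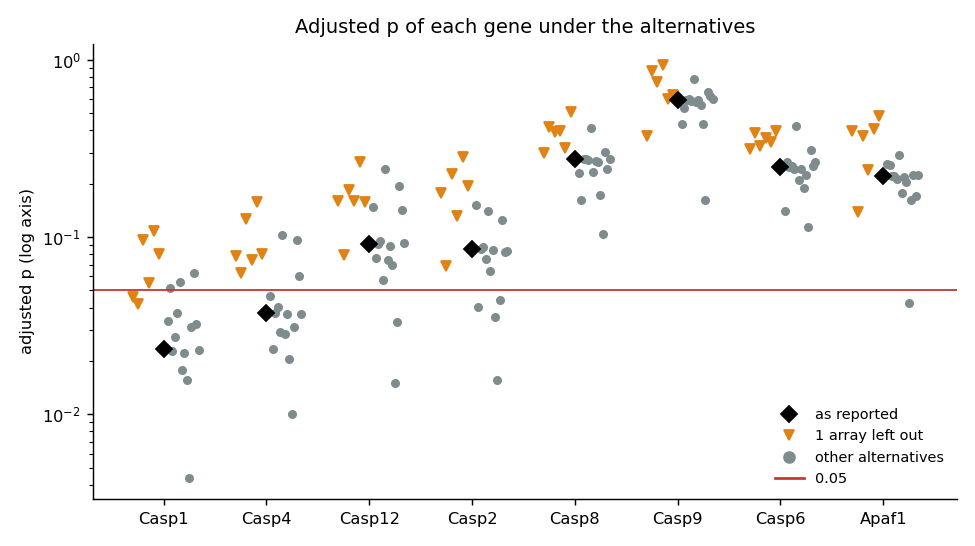
Adjusted p (log axis) of the 8 genes as reported, with 1 array left out, and under the other alternatives, with the threshold of 0.05 as a line. Casp1 and Casp4 lie under the line as reported and above it under part of the alternatives, whereas Casp8, Casp9 and Casp6 stay above it throughout.

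Among the substrates of the inflammatory caspases, gasdermin D (Gsdmd) was lower, with 1969, 5212 and 3346 on the Ntep arrays and 11399, 13436 and 12134 on the control arrays. The groups did not overlap, and the log2 difference was -1.92 (SE 0.36, limma adjusted p = 0.0429), and the adjusted p was above 0.05 in 5 of the 6 fits that left out an array (up to 0.167). Il18 differed by -2.15 (SE 0.78, adjusted p = 0.161, and 0.0310 with experiments as blocks). The probe of Il1b was not well above background on any array. Of the 7 inflammasome sensor and adaptor genes, 4 were tested and none had a limma adjusted p under 0.05, with 1 at an unadjusted p under 0.05 (25% of all tested probes) and none by the methods' t-test. Nlrp3, Nlrc4 and Mefv were not well above background on any array, and the adaptor Pycard differed by 0.41 (adjusted p = 0.463). The 2 probes of Nlrp1a disagreed, as 1 was bright on every array and the other was not well above background on any.

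In the apoptotic arm, Dffb, the nuclease that cuts DNA once caspases remove its inhibitor, was higher. It read 844, 572 and 1050 on the Ntep arrays and 309, 324 and 350 on the control arrays. The log2 difference was 1.29 (SE 0.26, limma adjusted p = 0.0476), and the adjusted p was above 0.05 in 5 of the 6 fits that left out an array (up to 0.180). Its inhibitor Dffa gave 0.66 at the brightest probe (SE 0.21, adjusted p = 0.129), and 0.01 and 0.23 at dimmer probes (adjusted p = 0.978 and 0.564). Of the 7 genes of apoptotic substrates and effectors, 1 rose and none fell by the adjusted test, where 2.09% of all tested probes were called higher and 3.21% lower. None of the 10 death receptor and adaptor genes passed, although 2 were higher and 1 lower at an unadjusted p under 0.05, which 25% of all tested probes reached. The 2 were Tnfrsf10b, a death receptor, with 0.97 (SE 0.22, adjusted p = 0.0583, and 0.0413 with experiments as blocks), and Ripk1, with 0.96 (SE 0.24, adjusted p = 0.0713, and 0.0350 with blocks). The third was Cradd, the adaptor of Casp2, with -0.66 (SE 0.17, adjusted p = 0.0822). A dimmer probe of Cradd gave -0.12 (limma adjusted p = 0.714). Of the 3 probes of Cflar, the inhibitor of Casp8, the dimmest gave 1.48 (adjusted p = 0.0721, and 0.0323 with blocks) and the brightest 0.24, so the gene was not measured alike by its probes. Neither the 5 mitochondrial factors nor the 5 inhibitor of apoptosis genes held a call by limma or by the methods' t-test, with 0 and 1 of them at an unadjusted p under 0.05, against the same 25% of all tested probes. In these 2 lists the largest difference was that of Birc2, with -0.53 (adjusted p = 0.176).

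**Figure D5:**
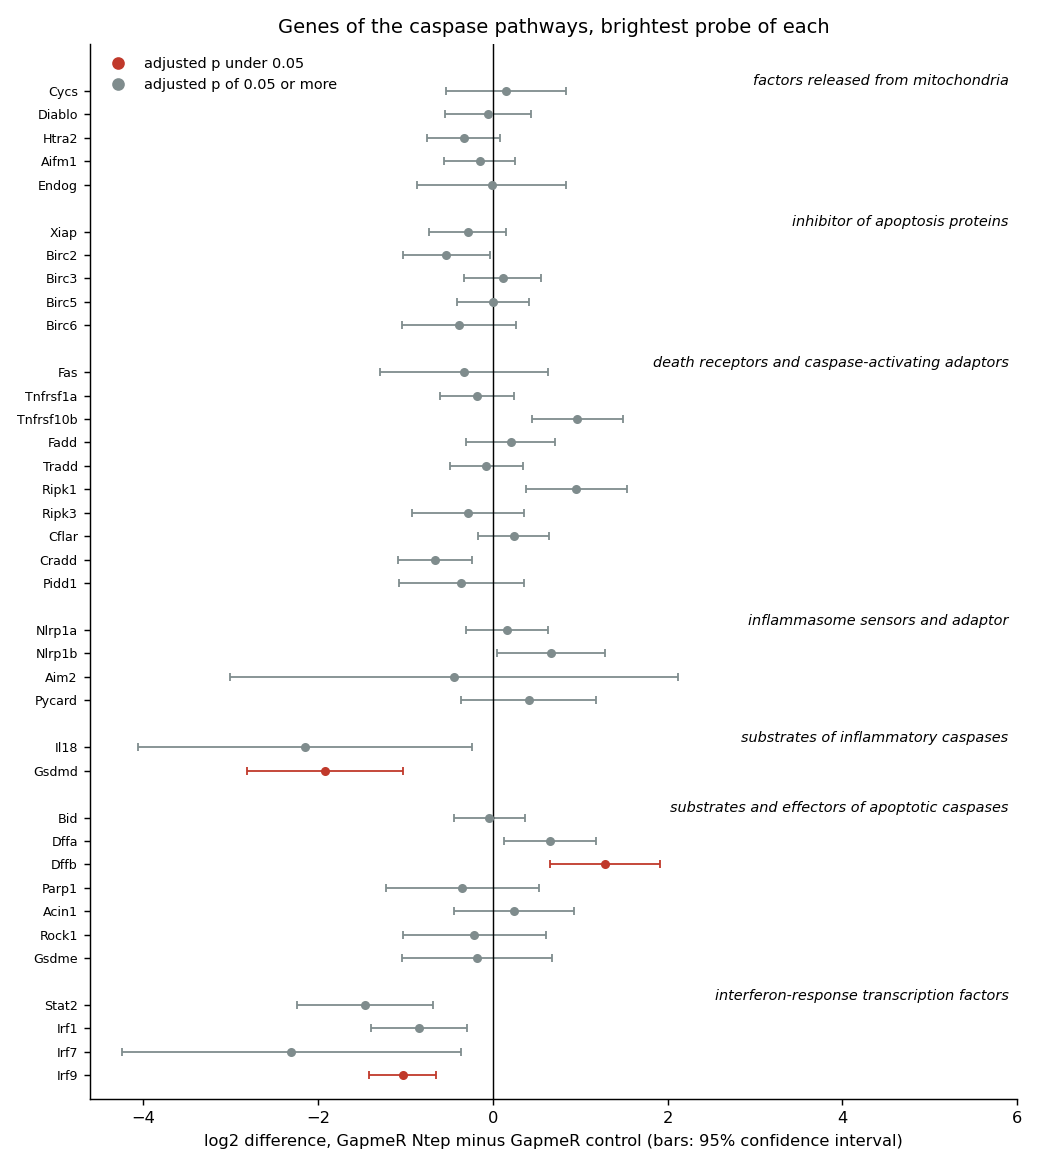
Log2 difference, GapmeR Ntep minus GapmeR control, of the brightest tested probe of caspase pathway genes, by list, with 95% confidence intervals (3 arrays per group). Of the genes drawn, Gsdmd and Irf9 were called lower and Dffb higher.

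Transcription factors of the interferon response, which are known to act on the inflammatory caspase genes, were read beside them. Irf9 was lower, with 22053, 24430 and 22053 on the Ntep arrays and 49908, 45573 and 44520 on the control arrays. The groups did not overlap, and the log2 difference was -1.03 (SE 0.16, limma adjusted p = 0.0300), with an adjusted p above 0.05 in 5 of the 6 fits that left out an array (up to 0.144). Stat2 differed by -1.46 (adjusted p = 0.0560, and 0.0399 with blocks) and Irf7 by -2.30 (adjusted p = 0.146, and 0.0443 with blocks). The brightest probe of Irf1 gave -0.84 (adjusted p = 0.0835). Its second probe was not well above background on any Ntep array and was so on 2 of 3 control arrays. It read 18.8, 16.2 and 13.1 on the Ntep arrays and 171, 70.1 and 56.4 on the control arrays. This probe entered the fit only through the control group. The fitted difference was -2.13 (limma adjusted p = 0.0468), with every Ntep signal counted as 20. The Ntep side thus had no spread of its own. The size of the difference is therefore not known, and its p is not a valid test. Irf8 was not well above background on any array. Whether these differences had a part in those of the caspases was not tested.

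Inflammatory caspases are abundant in macrophages, so markers of that cell type were read beside them. Of 12 macrophage genes, Ptprc, Adgre1, Tyrobp and Fcgr1 were not well above background on any array. Of the 8 tested, 5 were higher and 3 lower, and Cd68 passed, with 1.21 (limma adjusted p = 0.0287), where 5.3% of all tested probes passed in either direction. By the methods' t-test none of the 8 passed. With experiments as blocks 5 passed, where 13.8% of all tested probes passed in either direction. Csf1r, Itgam, Cd68 and Cd14 were higher (limma adjusted p = 0.0387, 0.0397, 0.0314 and 0.0332) and Aif1 lower, with -1.28 (0.0421). Dimmer tested probes of Csf1r, Itgam and Cd68 gave 0.44, -0.03 and 0.68 and did not pass with blocks (limma adjusted p = 0.109, 0.937 and 0.118). For these genes the call thus rests on the brightest probe. The summed signal of the list, to which the bright Itgam probe gave the most, was 43105 to 75493 on the Ntep arrays and 21192 to 27825 on the control arrays. The part of these genes in the caspase differences was not tested. In these bulk samples, fewer cells of a type and less RNA per cell cannot be told apart.

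Over 22640 tested probes well above background on all arrays, the profiles most like that of Casp1 over the 6 arrays were those of Kdm3a (Pearson r 0.994), Gm8046 (0.994) and Tm6sf1 (0.992). Those most like Casp4 were Gm1976 (0.997), Nckap1 (0.997) and Snx33 (0.995). The 6 arrays fall into 2 groups and share 1 slide.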

How the data were processed

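RNA of 3T3 cells was hybridised to 6 Agilent mouse arrays in 1 colour, all on 1 slide. Per the labels, the authors extracted intensities with Feature Extraction 10.7.3.1, and they deposited background-subtracted intensities per array on a linear scale, not normalised between arrays. Their own normalised intensity table served as an alternative. Here, spots of a probe were averaged, arrays quantile normalised, values under 20 set to 20, and log2 values compared without pairing in limma 3.58.1 (R 4.3.3) for the 30990 probes whose mean reached 50 in either group, with p-values adjusted over them by Benjamini-Hochberg. All p-values are two-sided. Precision is limited by the number of arrays.

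The study's supplement pairs the arrays by experiment, and the correlation of residuals was 0.466, 0.300 and 0.254 for arrays of 1 experiment against -0.327 to 0.126 across experiments, so experiments were blocks in an alternative fit. In all, 20 alternatives were run, 2 of them added after the data had been seen. Members and gene lists were chosen with earlier results of these data known. All 8 genes are named, and of the related lists the called genes and a few others by role, except some genes that are not reported here. Motifs were searched in RefSeq promoters. On simulated data with 30990 probes, 45% of 200 changes of 4-fold and 0% of 200 changes of 2-fold were called. In the data 1642 probes were called, and with fewer changed probes the adjusted threshold is stricter. The simulated shares therefore need not hold for the data.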

Additional observations from a re-analysis of the deposited data

How the results depend on the processing

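None of the differences of the 8 genes changed direction under the 20 alternatives. The difference of Casp1 lost its call with normexp background correction and an offset of 50 (-0.93, limma adjusted p = 0.0515). It also lost it without an intensity limit (-2.90, 0.0558) and by the methods' t-test (-2.90, 0.0625), and ranged from -3.13 to -2.55 with 1 array left out. Casp4 lost its call without an intensity limit, by the t-test and with variance shrinkage over all probes (-1.87 in each, limma or t-test adjusted p = 0.103, 0.0969 and 0.0600), and ranged from -2.21 to -1.64 with 1 array left out. Calls were gained with array weights by Casp12 (-2.23), Casp2 (-0.85) and Apaf1 (0.49), and by Casp2 with normexp (-0.78) and with limma's trend (-0.77). With experiments as a replicate block, Casp12 (-1.86) and Casp2 (-0.77) gained calls, and the block changed no other call among the 8 genes. The number of called genes was 0 without an intensity limit and by the t-test, 1 with shrinkage over all probes, 4 with the block and 5 with array weights, and 0 to 1 with 1 array left out. By the study's limits it was 2, but 1 with normexp and 3 with a floor of 50, the trend, array weights or the block, and 2 to 3 with 1 array left out. Over all probes, 1642 had an adjusted p under 0.05 (7761 an unadjusted p under 0.05). This became 564 without an intensity limit, 285 by the t-test, 2557 with normexp, 2707 with the trend, 4292 with the block and 10260 with array weights, and 0 to 1403 with 1 array left out. By the study's limits 2520 probes passed, 4506 with array weights, 1457 by the t-test, and 1583 to 3163 with 1 array left out. Scaling to the 75th percentile moved the median of all probes from 0.06 to 0.22, and the differences of Casp8, Casp9, Casp6 and Apaf1 then were 0.47, 0.44, 0.65 and 0.48. The causes were not tested. Signal near background limits Casp1 and Casp12 on the Ntep arrays.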
